A study of Mus musculus with 6 samples.

Results

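The 9 genes described here, Bach1, Bach2, Maf, Maff, Mafg, Mafk, Nfe2, Nfe2l1 and Nfe2l2, encode basic leucine zipper transcription factors of the MAF, BACH and NF-E2 families. They were chosen by name from the 23337 genes of the count table, and all 9 were found there. Polyadenylated RNA was sequenced from mouse HSPCs (hematopoietic stem and progenitor cells) that MLL-AF9, a leukemic fusion oncogene, had transformed. Every library carried this oncogene, and the labels set the groups apart by culture alone, which was pro-lymphoid in 3 libraries (lymphoid replicates 1, 5 and 6) and pro-myeloid in the other 3 (myeloid replicates 2, 3 and 4). The sources used here do not give the culture media, the promoter of the oncogene, the number of clones, or the age and strain of the donor mice. The comparison asked which of these genes differed between cells that shared an oncogene and were kept in cultures named for different lineages. Values given per library follow this order (lymphoid replicates 1, 5, 6 and myeloid replicates 2, 3, 4), and the lymphoid and myeloid libraries are those of these cultures. A log2 fold change is always pro-lymphoid minus pro-myeloid culture, and CPM is a gene's count relative to the total of its library, scaled by edgeR's trimmed mean method (TMM). All gene positions are those of mm10.

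Proteins of these families bind DNA as pairs. The small MAF proteins, encoded by Maff, Mafg and Mafk, lack an activation domain and serve as the common partners of the cap'n'collar (CNC) activators NF-E2 (Nfe2), NRF1 (Nfe2l1) and NRF2 (Nfe2l2) and of the repressors BACH1 and BACH2. The pairs read Maf recognition and antioxidant response elements, so that activators and repressors compete for the same DNA through a shared partner. In blood cells NF-E2 is known for platelet and globin gene expression, NRF2 for the antioxidant response, NRF1 for proteasome genes, BACH1 for heme-regulated repression of heme oxygenase, and BACH2 for B-lineage identity. The large factor c-MAF (Maf) has its own activation domain and is known from macrophages and lymphocytes.

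The libraries held 34972488 to 46724382 counts, and 3 counts in a library corresponded to 0.0650 to 0.0888 CPM. The cultures parted on the first principal component (82.4% of the variance), and along the second (7.42%) myeloid replicate 2 stood at 54.7, against -32.4 and -21.0 for the other pro-myeloid libraries. The leukocyte gene Ptprc stood at 277 to 433 CPM over the 6 libraries, and the progenitor genes Kit and Cd34 were present in every library, at 13.3 to 102 and 100.2 to 412 CPM. All differed between the cultures. In pro-lymphoid culture Kit (83.5 against 24.9 CPM, edgeR adjusted p = 0.0141) and Cd34 (308 against 117 CPM, edgeR adjusted p = 0.00766) were higher. Ptprc was lower there (296 against 386 CPM, edgeR adjusted p = 0.0469). Whether each library had its own culture or animal is not stated in the labels. Every p-value therefore measures the spread between these 6 libraries alone, which may be technical. In bulk RNA, fewer cells that express a gene and less of its RNA per cell cannot be told apart.

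The 9 genes split by direction. Bach2, Maf, Maff and Mafk were higher and Bach1, Mafg, Nfe2, Nfe2l1 and Nfe2l2 lower in pro-lymphoid culture, each with an edgeR adjusted p under 0.05. Among all 12477 tested genes, 38.6% were called, 17.4% as higher and 21.3% as lower. The CPM values of the cultures did not overlap for any of the 9 genes, as for 53.6% of all tested genes. The change was at least 2-fold for 4 of them (Bach2, Maf, Maff and Nfe2), against 21.0% of all tested genes. The median log2 fold change of the 9 was -0.67, and that of all tested genes 0.00 (-0.00019). Their median absolute change was 0.95, against 0.45 over all tested genes. All 9 genes passed the filter on low counts, which asks for enough counts in 3 libraries. For Bach2 and Maf the pro-myeloid libraries alone would not have met it, since 1 of the 3 had too few counts (2 for Bach2 and 7 for Maf).

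**Figure D1:**
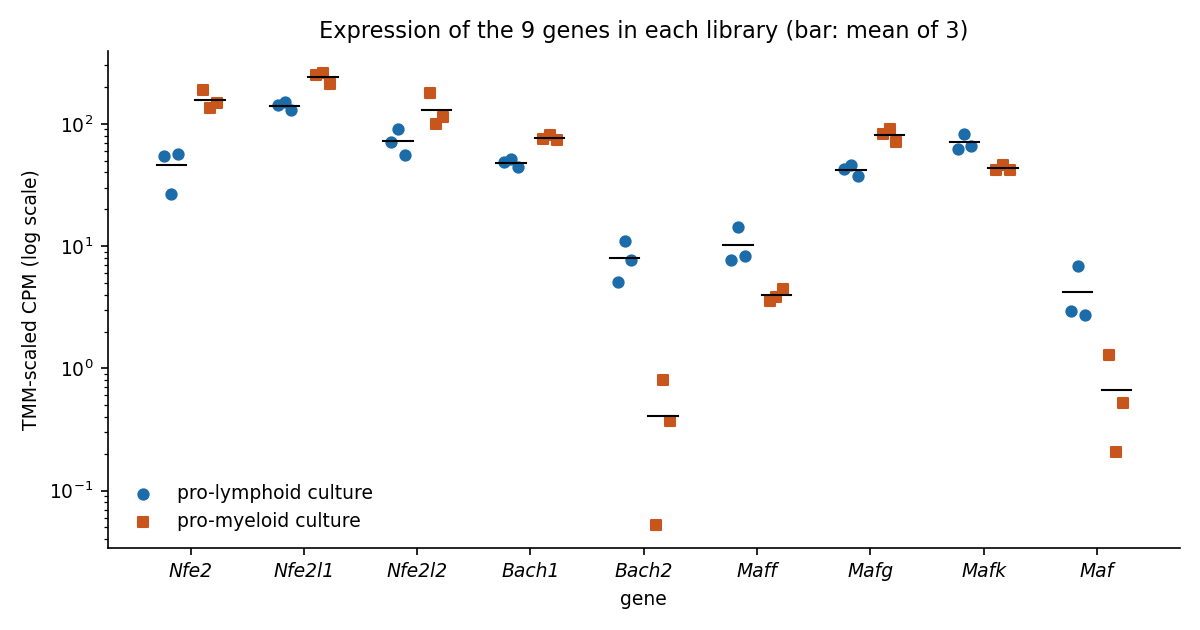
TMM-scaled CPM (y axis, log scale) of the 9 genes (x axis). Circles are the 3 pro-lymphoid libraries, squares the 3 pro-myeloid ones, and lines the culture means. The cultures do not overlap for any gene, and Bach2 lies at 5.13 to 11.1 against 0.0521 to 0.799 CPM.

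Among the repressors, Bach2 showed the largest change of the 9 genes. The gene, spanning 32417435 to 32586108 on chromosome 4 of mm10 in 5 exons, was counted 189, 423 and 328 times over the lymphoid libraries, and 2, 27 and 17 times over the myeloid libraries. These counts correspond to 5.13, 11.1 and 7.63 CPM against 0.0521, 0.799 and 0.368 CPM. Every pro-lymphoid library was thus above every pro-myeloid library, and the lowest value was that of myeloid replicate 2. The means were 7.94 ± 2.98 and 0.407 ± 0.375 CPM (SD, n = 3), a 19.5-fold difference (log2 fold change 4.33 ± 0.58, SE, edgeR adjusted p = 0.00141). Without myeloid replicate 3 the log2 fold change was 5.13. The counted exons of Bach2 share 396 of 8493 bases with BC024582, a gene on the opposite strand with 0 to 4 counts per library. The counting did not use strand, so reads of an antisense RNA cannot be told apart from those of Bach2.

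Bach1, the heme-binding repressor, went the other way by a smaller amount. It stood at 48.6, 51.4 and 44.3 CPM over the lymphoid libraries and at 74.7, 80.4 and 74.0 CPM over the myeloid libraries. The spread within each culture was narrow, with a coefficient of variation of 7.42% and 4.53%, and the gap between the cultures was wider than either. The fall to 48.1 ± 3.57 from 76.4 ± 3.46 CPM (SD, n = 3) gave a log2 fold change of -0.67 ± 0.11 (SE, edgeR adjusted p = 0.00337; chromosome 16, 87698954 to 87733346, 5 exons). On the TPM scale, where counts are divided by transcript length so that levels of different genes can be compared, Bach1 remained the more abundant repressor in both cultures. Bach2 made up 6.78%, 12.9% and 10.6% of the summed Bach1 and Bach2 TPM over the lymphoid libraries, and 0.0480%, 0.681% and 0.342% over the myeloid libraries. The summed level of the pair was lower in pro-lymphoid culture, at 17.4 ± 1.68 against 24.7 ± 1.55 TPM (SD, n = 3, exact permutation p = 0.1, two-sided, adjusted 0.144 over 13 sums, shares and ratios). With 3 against 3 libraries, no exact p can be below 0.1.

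Of the CNC activators, Nfe2 fell the most in pro-lymphoid culture. Nfe2 encodes the p45 subunit of NF-E2 and spans 103248218 to 103255416 on chromosome 15 in 3 exons. Its values were 54.6, 26.5 and 56.7 CPM over the lymphoid libraries and 188, 135 and 147 CPM over the myeloid libraries. Lymphoid replicate 5 was the lowest library, and the highest pro-lymphoid value was 2.14 times the lowest. The means of 45.9 ± 16.9 and 157 ± 27.8 CPM (SD, n = 3) differed 3.42-fold (log2 fold change -1.77 ± 0.29, SE, edgeR adjusted p = 0.00336).

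Nfe2l1 and Nfe2l2 were also lower in pro-lymphoid culture, by less. Nfe2l1, which encodes NRF1 (chromosome 11, 96817414 to 96829968, 8 separate exon blocks), stood at 143, 149 and 129 CPM over the lymphoid libraries and at 249, 258 and 210 CPM over the myeloid libraries. The lowest pro-myeloid library was well above the highest pro-lymphoid one, with a log2 fold change of -0.77 ± 0.12 (SE, edgeR adjusted p = 0.00275). Nfe2l2, which encodes NRF2 (chromosome 2, 75675519 to 75704641, 5 exons), stood at 71.0, 90.7 and 55.6 CPM over the lymphoid libraries and at 177, 99.6 and 114 CPM over the myeloid libraries. Here the cultures nearly met, as lymphoid replicate 5 reached 90.7 and myeloid replicate 3 only 99.6 CPM. Its log2 fold change was -0.85 ± 0.26 (SE, edgeR adjusted p = 0.0360), and the call was lost when lymphoid replicate 1 or 6, or myeloid replicate 2 or 4, was left out (adjusted p = 0.0887, 0.120, 0.0626 and 0.0610) and without scaling factors. Without myeloid replicate 2, which had the highest value, the change of Nfe2l2 was -0.56.

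The small Maf genes moved in opposite directions. Mafg (chromosome 11, 120628351 to 120633547, 3 exons) stood at 43.0, 46.2 and 37.4 CPM over the lymphoid libraries and at 82.0, 90.8 and 71.2 CPM over the myeloid libraries. It was lower in every pro-lymphoid library, with a log2 fold change of -0.95 ± 0.14 (SE, edgeR adjusted p = 0.00204). Mafk (chromosome 5, 139791536 to 139802652, 3 exons) stood at 62.0, 82.6 and 66.3 CPM in pro-lymphoid and at 41.7, 46.0 and 42.2 CPM in pro-myeloid culture, in the same order of libraries. It was higher in every pro-lymphoid library, with a log2 fold change of 0.70 ± 0.14 (SE, edgeR adjusted p = 0.00733). Maff (chromosome 15, 79347678 to 79359076, 3 exons), which is known as an inducible member of the group, stood at 7.73, 14.4 and 8.24 CPM against 3.57, 3.82 and 4.44 CPM. It was the least abundant of the 3 in every library and rose by 1.35 ± 0.30 on the log2 scale (SE, edgeR adjusted p = 0.0109). Mafk overlaps Tmem184a, a gene on the opposite strand in GENCODE, which the counting cannot tell apart.

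As a result the make-up of the small Maf pool differed between the cultures. Mafg made up 50.02%, 43.1% and 44.9% of the summed small Maf TPM over the lymphoid libraries, and 75.0%, 75.1% and 71.4% over the myeloid libraries. The share of Mafk was 44.2 ± 2.19% against 22.9 ± 1.44%, and that of Maff 9.79 ± 2.13% against 3.29 ± 0.656% (SD, n = 3). None of these shares overlapped between the cultures (exact permutation p = 0.1 for each, the smallest that 3 against 3 allow, adjusted 0.144). The summed level itself was 109, 119 and 93.1 TPM in pro-lymphoid and 138, 130 and 112 TPM in pro-myeloid culture and overlapped between them (107 ± 12.96 against 127 ± 13.4 TPM, SD, n = 3, exact permutation p = 0.2, adjusted 0.260). A difference in the total was therefore not shown at this number of libraries, while the shares of the 3 genes were apart.

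**Figure D2:**
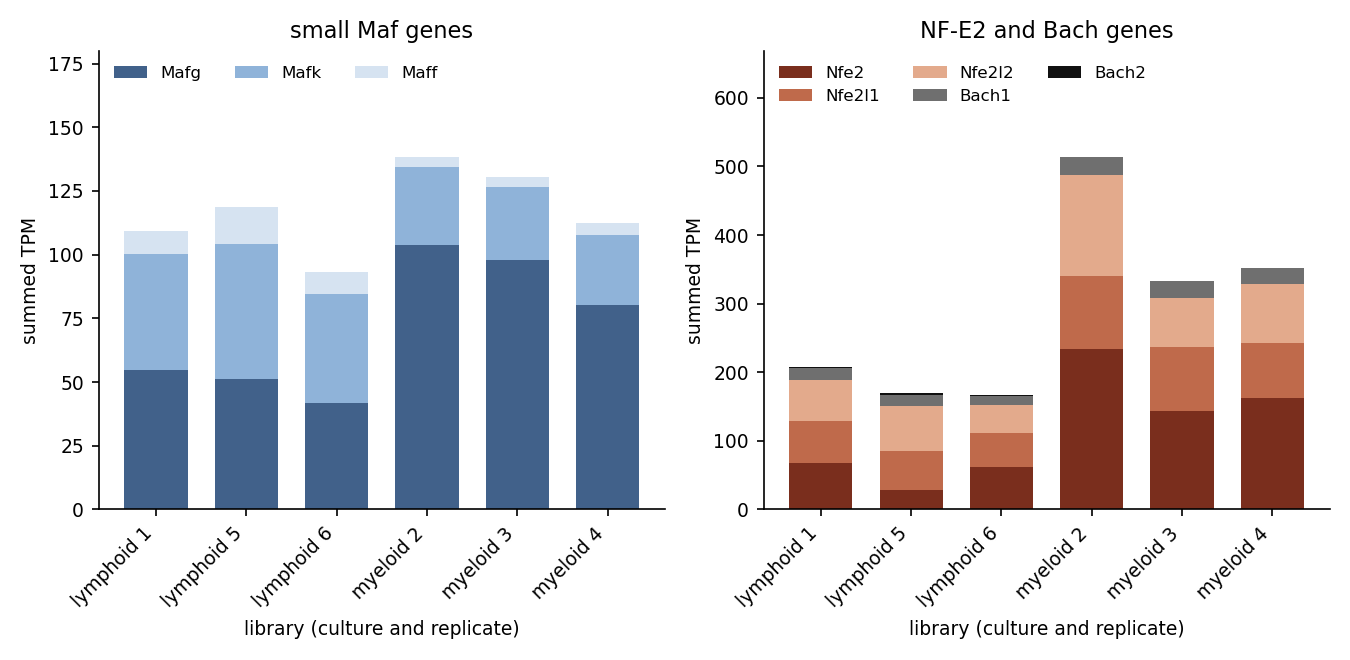
Summed TPM (y axis, linear from 0) of the small Maf genes (left) and of the NF-E2 and Bach genes (right) in each library (x axis), with 1 colour per gene. The Mafg share is 43.1% to 50.02% in the pro-lymphoid and 71.4% to 75.1% in the pro-myeloid libraries, and the right-hand sum is 168 to 208 against 333 to 514 TPM.

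The partners of the small Maf proteins differed more in total. Summed over Nfe2, Nfe2l1, Nfe2l2, Bach1 and Bach2, the level was 208, 169 and 168 TPM over the lymphoid libraries and 514, 333 and 351 TPM over the myeloid libraries (182 ± 22.6 against 400 ± 99.9 TPM, SD, n = 3, exact permutation p = 0.1, adjusted 0.144). Relative to the small Maf sum this was 1.90, 1.43 and 1.80 against 3.71, 2.55 and 3.13, again without overlap. Nfe2 supplied 32.8%, 17.0% and 37.2% of the sum in the pro-lymphoid libraries and 45.5%, 43.1% and 46.4% in the pro-myeloid libraries. The ratio of Nfe2l2 to Bach1, the activator and repressor best known for opposing each other at heme oxygenase, was 3.54 ± 0.608 against 4.07 ± 1.38 and overlapped (exact permutation p = 0.7, adjusted 0.758). The ratio of Nfe2l1 to Nfe2l2 overlapped as well, at 1.01 ± 0.171 against 0.988 ± 0.305 (exact permutation p = 1). All of these are RNA levels, and the proteins were not measured.

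In order of TPM, Nfe2 led in pro-myeloid culture at 180 ± 47.7 TPM, followed by Nfe2l2 (102 ± 41.0), Mafg (94.0 ± 12.3) and Nfe2l1 (93.1 ± 13.02), whose neighbours in the order overlapped in range. Mafk (29.0 ± 1.498), Bach1 (24.7 ± 1.60), Maff (4.13 ± 0.404) and Maf (0.363 ± 0.324) followed without overlap from one to the next, and Maf overlapped with Bach2 (0.0863 ± 0.0769). In pro-lymphoid culture Nfe2l2 (55.9 ± 13.2), Nfe2l1 (55.1 ± 6.34), Nfe2 (53.1 ± 21.2), Mafg (49.2 ± 6.66) and Mafk (47.2 ± 5.21) lay close together, each overlapping with the next. Bach1 (15.7 ± 1.72) and Maff (10.6 ± 3.38) overlapped below them, as did Maf (2.16 ± 1.10) and Bach2 (1.75 ± 0.561) at the bottom. All are means ± SD of 3 libraries in TPM. Even at its pro-lymphoid level, Bach2 remained the least abundant of the 9 genes by mean TPM.

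The large factor gene Maf was higher in pro-lymphoid culture. It is counted as 1 exon on chromosome 8 (115703253 to 115706894) and was counted 109, 262 and 117 times over the lymphoid libraries, and 49, 7 and 24 times over the myeloid libraries. The corresponding values were 2.96, 6.85 and 2.72 against 1.28, 0.207 and 0.520 CPM. Lymphoid replicate 5 was 2.52 times as high as the lowest pro-lymphoid library, and myeloid replicate 2 was the highest of its culture. The log2 fold change was 2.62 ± 0.61 (SE, edgeR adjusted p = 0.0136). The call was lost without myeloid replicate 4 (2.43, adjusted p = 0.0575), and the change was 3.42 without myeloid replicate 2. Maf shares exon sequence with an antisense RNA of the GENCODE annotation, which the counting cannot tell apart.

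Of the relatives outside the 9 genes, Nfe2l3 (3 to 28 counts per library) and Mafa (0 to 3 counts) were removed by the filter, and Nrl, a retinal factor gene, had 0 counts in all 6 libraries.

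**Figure D3:**
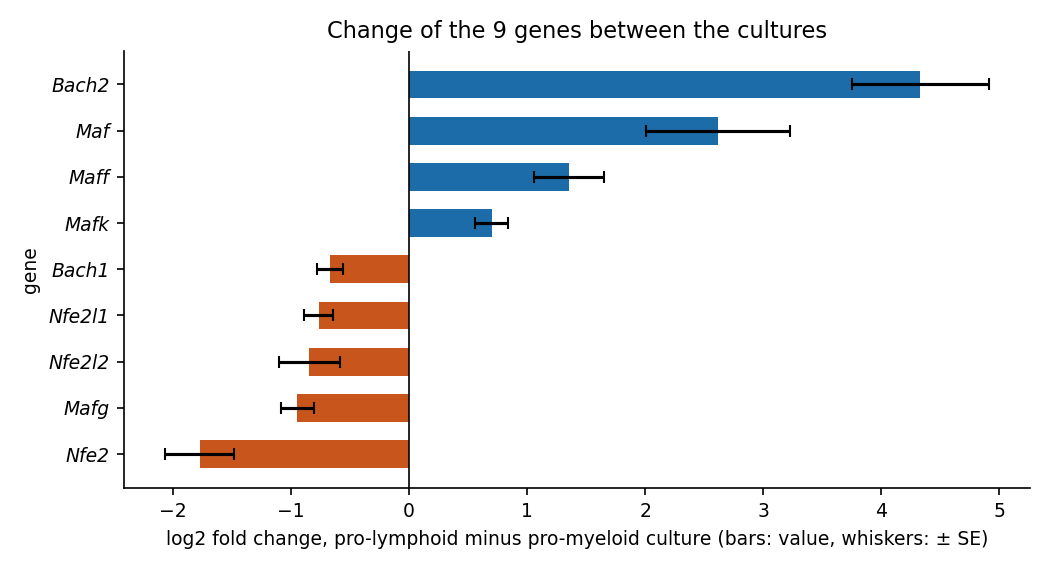
Log2 fold change (x axis, pro-lymphoid minus pro-myeloid culture) of each of the 9 genes (y axis), drawn as a bar with whiskers of ± 1 SE. Bach2 lies farthest to the right at 4.33 and Nfe2 farthest to the left at -1.77, and the small Maf genes lie on either side of 0.

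Within a culture the genes did not vary alike. Lymphoid replicate 5 had the highest CPM of its culture for 8 of the 9 genes and the lowest for the remaining gene, Nfe2. The ratio of the highest to the lowest pro-lymphoid library was 1.16 for Bach1 and for Nfe2l1, but 2.16 for Bach2 and 2.52 for Maf. In pro-myeloid culture, myeloid replicate 2 was highest for Maf, Nfe2 and Nfe2l2 and lowest for Bach2, Maff and Mafk. The widest spread was that of Bach2 in pro-myeloid culture, a ratio of 15.3 between libraries of 27 and 2 counts, where counting error is large.

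The genes closest in pattern were found by the root-mean-square difference of centred log2 CPM over the 6 libraries, among 9471 candidates with at least 5 CPM in the higher culture. For Bach2 these were Nrcam (0.377), BC064078 (0.528) and Epha2 (0.546). Nrcam, a cell adhesion gene, stood at 3.39, 8.498 and 7.07 CPM over the lymphoid libraries and at 0.0781, 0.592 and 0.238 CPM over the myeloid libraries, so that it shared with Bach2 both the highest library and the lowest. For Maf they were Abcg1 (0.398), a sterol exporter gene, Slain1 (0.419) and Spred2 (0.480). For Nfe2 they were Stard4 (0.133), Idh1 (0.146) and Anxa3 (0.156), whose values also dipped in lymphoid replicate 5 (7.35 CPM for Stard4, against 13.4 and 15.9 CPM in lymphoid replicates 1 and 6).

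Promoter sequence was available for 7 of the 9 genes, as 300 bases from 250 before to 50 after each start in RefSeq (GRCm38.p6, the assembly of mm10). The core of the antioxidant response element, TGACNNNGC on either strand, was found for Mafg, Mafk, Maff and Nfe2l2, that is for 4 of the 7 genes and for 14.0% of all 27025 genes with a promoter. These 4 are shown because the small Maf genes and Nfe2l2 encode the pair that reads this element, and because they changed in different directions. Each is printed 5′ to 3′ on the strand that reads the core, which is in capitals, and no base after the start is shown.
Mafg, plus strand, chr11:120633731-120633797: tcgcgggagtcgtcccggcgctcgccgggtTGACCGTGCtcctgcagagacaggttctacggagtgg
Mafk, minus strand, chr5:139791493-139791535: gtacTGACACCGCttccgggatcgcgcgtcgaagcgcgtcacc
Maff, plus strand, chr15:79346479-79346547: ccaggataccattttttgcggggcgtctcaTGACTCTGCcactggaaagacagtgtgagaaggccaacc
Nfe2l2, minus strand, chr2:75704865-75704913: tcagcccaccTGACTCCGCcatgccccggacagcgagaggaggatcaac

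The core began 222 bases before the start of Mafg, 13 before that of Mafk and 240 before that of Nfe2l2. That of Maff lay 112 bases before an upstream start, which is outside the counted gene model. The shorter Maf site TGCTGA, which can overlap the longer core when a C follows it, was found for Mafk, Bach1 and Nfe2l1 (3 of 7 genes, and 21.7% of all genes). Mafk therefore held both motifs, and Bach2 held neither in this window. A match is a description of the letters and shows no binding, and genes with the core were found on either side of the comparison.

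Genes of the antioxidant response, the set best known as targets of NRF2 and BACH1, did not move one way. Of 25 genes of the list, all tested, 6 rose, 11 fell and 8 did not pass, with a median log2 fold change of -0.09 (all tested genes 0.00). Over all tested genes, 38.6% were called, 17.4% as higher and 21.3% as lower, and these shares apply beside each list count below. Gsr, which encodes glutathione reductase, stood at 96.2, 90.1 and 85.7 CPM over the lymphoid libraries and at 486, 396 and 418 CPM over the myeloid libraries (log2 fold change -2.26 ± 0.12, SE, edgeR adjusted p = 2.63e-05). Pgd and G6pdx of the pentose phosphate pathway fell by 1.68 ± 0.12 and 1.33 ± 0.15 on the log2 scale, and Taldo1 by 0.91 ± 0.14, whereas Tkt of the same pathway stood at 876 ± 69.8 against 898 ± 56.1 CPM without a call.

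The genes for the subunits of glutamate-cysteine ligase, the first enzyme of glutathione synthesis, went opposite ways. Gclm, the modifier subunit, stood at 36.3, 40.8 and 43.2 CPM in pro-lymphoid and at 92.5, 99.7 and 106 CPM in pro-myeloid culture, a fall of 1.31 ± 0.12 on the log2 scale (edgeR adjusted p = 0.000255). Gclc, the catalytic subunit, stood at 82.9, 94.5 and 88.0 against 49.8, 36.8 and 48.2 CPM, a rise of 0.98 ± 0.14 (edgeR adjusted p = 0.0021). Both genes were thus apart between the cultures in every library, with opposite signs. Of the ferritin genes, Fth1 rose by 0.91 ± 0.20, a call lost without myeloid replicate 4 (adjusted p = 0.0511), and Ftl1 stood at 3010 ± 610 against 2953 ± 346 CPM without a call.

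Other antioxidant genes rose as well. Prdx1, a peroxiredoxin gene, rose by 0.67 ± 0.14 on the log2 scale and Txnrd1, the thioredoxin reductase gene, by 0.62 ± 0.20, the latter call being lost when lymphoid replicate 5 or 6, or myeloid replicate 3 or 4, was left out. Me1, the malic enzyme gene, rose to 2.58 ± 0.386 from 0.124 ± 0.147 CPM (log2 fold change 4.32 ± 0.57, and 5.61 without myeloid replicate 2). It was counted 11, 0 and 4 times over the myeloid libraries, so the size of its change is uncertain. Ephx1, an epoxide hydrolase gene, was called higher from 20, 61 and 68 counts against 0, 1 and 1 (edgeR adjusted p = 0.00108). Me1 and Ephx1 met the low-count filter only through the pro-lymphoid libraries. Cbr1, a carbonyl reductase gene, had a log2 fold change of -3.16 ± 0.41, and of -3.87 without lymphoid replicate 6. Nqo1, among the best known NRF2 targets, was low in both cultures (0.856 ± 0.641 against 0.811 ± 0.657 CPM, SD, n = 3, edgeR adjusted p = 0.992). Gclc, Taldo1, Fth1, Prdx1, Txnrd1, Cbr1 and Nqo1 were chosen after their values were seen, beyond the 6 genes of the list with the smallest adjusted p.

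Of the 20 antioxidant genes with a RefSeq promoter, 8 (40.0%) held the core TGACNNNGC, against 14.0% of all 27025 genes with a promoter. Among these 8, G6pdx, Gclm, Pgd, Srxn1 and Ugdh were called lower, and Me1, Prdx1 and Txnrd1 higher. The windows of 2 that fell (G6pdx and Gclm) and 1 that rose (Prdx1) are shown to set the same element beside opposite changes, again on the strand that reads the core and with the core in capitals.
G6pdx, plus strand, chrX:74428899-74428967: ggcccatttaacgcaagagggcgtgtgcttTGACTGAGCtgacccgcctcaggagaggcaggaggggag
Gclm, minus strand, chr3:122245393-122245461: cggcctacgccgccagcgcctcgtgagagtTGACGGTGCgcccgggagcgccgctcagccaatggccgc
Prdx1, minus strand, chr4:116685436-116685504: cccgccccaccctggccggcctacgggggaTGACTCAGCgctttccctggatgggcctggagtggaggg

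Of 15 genes of heme synthesis, heme breakdown and iron export, 14 were tested, of which 0 rose, 5 fell and 9 did not pass (median log2 fold change -0.33). The share called was near the 38.6% of all tested genes. Alas1, the first enzyme of heme synthesis outside red cells, stood at 193, 98.4 and 115 CPM over the lymphoid libraries and at 605, 625 and 465 CPM over the myeloid libraries (log2 fold change -2.06 ± 0.27, SE, edgeR adjusted p = 0.00123). Hmox1, heme oxygenase and the classic BACH1 target, stood at 35.7, 27.5 and 19.4 against 51.4, 61.8 and 38.0 CPM. The cultures were close here, lymphoid replicate 1 lying just under myeloid replicate 4, and the fall of 0.87 ± 0.26 on the log2 scale (edgeR adjusted p = 0.0346) lost its call without lymphoid replicate 5 or 6, without myeloid replicate 2 or 3, and without scaling factors. Hmox1 and its repressor gene Bach1 thus had the same sign. Hmox2, the constitutive heme oxygenase gene, fell by 0.78 ± 0.11, Urod by 0.46 ± 0.10 (lost without lymphoid replicate 6) and Blvrb by 1.24 ± 0.38 (lost on leaving out lymphoid replicate 1, myeloid replicate 3 or myeloid replicate 4). The synthesis genes Alad, Uros, Cpox, Ppox and Fech did not pass.

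**Figure D4:**
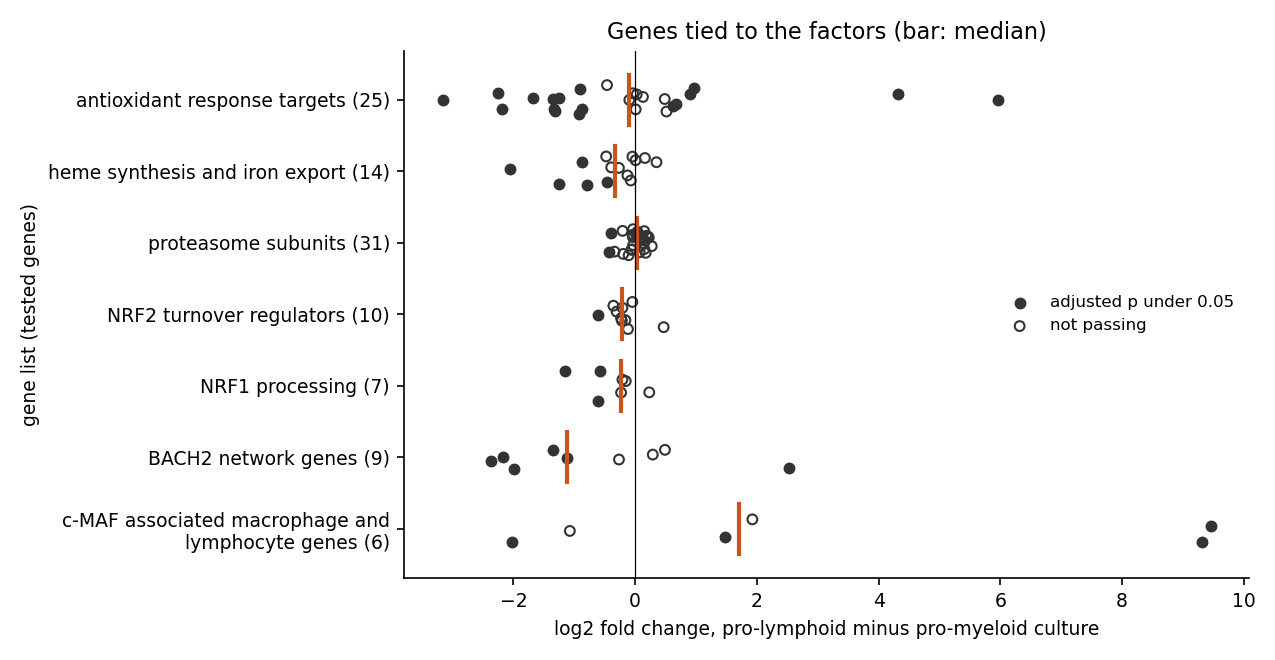
Log2 fold change (x axis, pro-lymphoid minus pro-myeloid culture) for 7 gene lists tied to the factors (y axis, tested genes in brackets), with a point per gene and a bar at the list's median. Filled points passed the test at 0.05. Proteasome subunits lie close to 0 with a median of 0.04, antioxidant genes spread to either side, and the points near 9 (Cd163 and Il10) were fitted against 1 or 0 pro-myeloid counts and are no measured folds.

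Proteasome subunit genes, the known targets of NRF1, mostly did not pass. Of 31 genes, 0 rose, 2 fell and 29 did not pass, with a median log2 fold change of 0.04, while Nfe2l1 itself was at -0.77. Psma3 and Psmb5 fell by 0.43 ± 0.13 and 0.39 ± 0.13 on the log2 scale, and each call was lost in at least 5 of the 14 alternatives. Their number was 1 without scaling factors, and 0 without lymphoid replicate 1, 5 or 6 or myeloid replicate 4. Among 7 genes that process or degrade NRF1, 3 fell and 4 did not pass. Sel1l, of the endoplasmic reticulum degradation complex, fell by 1.15 ± 0.22 and Ddi2, the protease that releases NRF1, by 0.57 ± 0.16 (edgeR adjusted p = 0.00669 and 0.0264), the latter call being lost on leaving out lymphoid replicate 5, lymphoid replicate 6 or myeloid replicate 3.

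Of 10 regulators of NRF2 turnover, 1 fell and 9 did not pass (median log2 fold change -0.21), against 38.6% called over all tested genes. Keap1, the sensor that marks NRF2 for destruction, stood at 101 ± 4.99 against 117 ± 4.65 CPM (SD, n = 3) without a call (edgeR adjusted p = 0.118), and its partner Cul3 at 156 ± 13.6 against 174 ± 12.1 CPM (edgeR adjusted p = 0.303). Btrc, the β-TrCP gene, fell (log2 fold change -0.60 ± 0.14, edgeR adjusted p = 0.0123), a call lost without lymphoid replicate 5 or 6. Btrc stands in the lists of both NRF1 and NRF2.

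Of 13 genes tied to BACH2 in the B and myeloid lineages, 9 were tested, of which 1 rose, 5 fell and 3 did not pass (median log2 fold change -1.12). Over all tested genes, 17.4% were called as higher and 21.3% as lower. Cebpb, a myeloid factor gene known to be repressed by BACH2 in progenitors, stood at 79.2, 60.2 and 43.3 CPM in pro-lymphoid and at 231, 407 and 306 CPM in pro-myeloid culture. Cebpb and Cebpa had log2 fold changes of -2.37 ± 0.28 and -1.98 ± 0.24. Foxo1, Xbp1 and Bcl6, factor genes of B and plasma cells, fell as well (log2 fold changes -2.17 ± 0.20, -1.34 ± 0.19 and -1.12 ± 0.27), the call of Bcl6 being lost without lymphoid replicate 5 or 6. Irf4 rose (log2 fold change 2.53 ± 0.80, edgeR adjusted p = 0.0419), at 0.651, 4.44 and 1.72 CPM over the lymphoid libraries against 0.156, 0.622 and 0.412 CPM. With 6 counts in myeloid replicate 2, Irf4 would not have met the low-count filter in the pro-myeloid libraries alone. Its highest library was again lymphoid replicate 5, without which the change of Irf4 was 1.63 and the call lost, as it was without lymphoid replicate 6 or any single pro-myeloid library and with limma-voom.

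The targets best known for BACH2 in mature B cells had few reads. Prdm1, which encodes BLIMP1 and is repressed by BACH2 in B cells, had 3, 13 and 6 lymphoid against 1, 1 and 2 myeloid counts, and was not tested. Pax5, the B-lineage factor gene, stood at 0 to 0.0542 CPM in pro-lymphoid culture and at 0.0260, 2.40 and 1.69 CPM over the myeloid libraries, and like Ebf1 it was not tested. Of 8 plasma cell genes, 7 were in the table and 3 tested (1 higher, 1 lower and 1 not passing), with a summed level of 135 to 174 CPM in pro-lymphoid and 278 to 536 CPM in pro-myeloid culture, in which Xbp1, a gene that many cell types express, held 140 ± 13.9 and 356 ± 84.5 CPM. Sdc1 held 6.53 ± 4.49 and 41.5 ± 45.4 CPM of the sum, without a call. The sum does not give the direction of the genes with few reads, which were not tested. Jchain had 6, 25 and 17 lymphoid against 2, 1 and 2 myeloid counts. Mzb1 had 8, 24 and 5 against 0, 0 and 0, and Tnfrsf17 11, 5 and 0 against 1, 3 and 0. Whether plasma cells had a part in the difference of Bach2 was not tested.

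Genes linked to c-MAF in macrophages and lymphocytes were few in these cells. Of 14 genes, 6 were tested, of which 3 rose, 1 fell and 2 did not pass (median log2 fold change 1.70). Il10 and Cd163 are among those that rose, and they passed the low-count filter only through the pro-lymphoid libraries. Their fitted values, which enter this median, are no measured folds. Il10, a cytokine gene activated by c-MAF, summed to 237 lymphoid and 0 myeloid counts. It was at least 79-fold higher in pro-lymphoid culture, taking 3 counts over the group as the floor. Cd163, a macrophage scavenger receptor gene, had 979 counts against 1 count, a ratio of 981 with an exact 95% counting interval of 176 to 38785. Ccnd2, the cyclin D2 gene, rose (log2 fold change 1.47 ± 0.17, edgeR adjusted p = 0.000812), and Itgb7 stood at 110, 219 and 194 against 6.82, 97.5 and 33.7 CPM without a call. F13a1 fell (log2 fold change -2.03 ± 0.65, edgeR adjusted p = 0.0427, and -1.31 without myeloid replicate 3). Its call was lost with limma-voom and when any library except myeloid replicate 2 was left out.

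The other macrophage markers of that list had few reads or no call. C1qb was counted 1, 108 and 11 times over the lymphoid and 4, 0 and 1 times over the myeloid libraries, and C1qc 0, 48 and 5 against 2, 0 and 2 times. Most reads of both were in lymphoid replicate 5, which was also the highest library for Maf, and neither gene was tested. The part of macrophages in the difference of Maf was not tested. Mrc1 (0.138 ± 0.0386 against 0.232 ± 0.135 CPM) and C1qa (0.0174 ± 0.0302 against 0 CPM) were near 0 in both cultures, and Stab1 stood at 3.86 ± 2.88 against 8.10 ± 3.36 CPM without a call. The T-cell cytokine genes Il4 and Il21 had 0 counts in all 6 libraries. Among 12 T and NK cell genes, 3 were tested (1 higher, 1 lower, 1 not passing), and Cd3e, Gzma and Ncr1 were at 0. The summed level was 3.74 to 6.12 CPM in pro-lymphoid and 16.1 to 44.1 CPM in pro-myeloid culture. Most of the pro-myeloid sum was Nkg7, the gene called lower (2.50 ± 1.07 against 25.3 ± 14.4 CPM). Klrb1c was the gene called higher (0.387 ± 0.159 against 0.0879 ± 0.0521 CPM). With 21, 12 and 12 against 4, 1 and 6 counts, it met the low-count filter only through the pro-lymphoid libraries.

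Genes of the platelet and red cell lineages, where NF-E2 is best known, had few calls. Of 14 platelet genes, 6 were tested, of which 0 rose, 1 fell (Selp, log2 fold change -3.002 ± 0.42) and 5 did not pass. Selp, with 11, 8 and 21 against 73, 114 and 135 counts, would not have met the low-count filter in the pro-lymphoid libraries alone. The summed level of the platelet genes was 128 to 148 CPM in pro-lymphoid and 53.8 to 125 CPM in pro-myeloid culture, most of it Itgb3 (125 ± 7.93 and 71.0 ± 40.8 CPM), and Gp6 and Rab27b were at 0. Of 13 erythroid genes, 12 were in the table, 2 were tested and 0 passed with edgeR, against 1 (Tfrc) at an unadjusted p under 0.05 and 1 with DESeq2. The adult globin genes Hba-a1, Hba-a2, Hbb-b1 and Hbb-b2 had 0 counts in all 6 libraries, and the summed erythroid level was 135 to 372 against 131 to 156 CPM, nearly all from Tfrc.

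Of 12 mast cell and basophil genes, 5 were tested, of which 1 rose, 3 fell (Ms4a2, Mcpt8 and Hdc) and 1 did not pass. Their summed level was 14.6 to 35.2 CPM in pro-lymphoid against 78.1 to 156 CPM in pro-myeloid culture. Gata2, which progenitors also express, made up much of this sum and stood at 146 CPM in myeloid replicate 2 (21.5 ± 9.72 against 73.3 ± 63.0 CPM, SD, n = 3) without a call. For Hdc the cultures overlapped, at 1.63, 0.941 and 1.26 CPM over the lymphoid and 0.521, 29.8 and 76.3 CPM over the myeloid libraries. Myeloid replicate 2 was thus below every pro-lymphoid library. Cpa3, a mast cell protease gene, was not tested and was counted 2, 0 and 5 times over the lymphoid and 5, 24 and 375 times over the myeloid libraries, nearly all in myeloid replicate 4. Il1rl1 was the gene that rose, and 6 other genes of the list, Mcpt4, Cma1, Tpsab1, Tpsb2, Fcer1a and Prss34, had 0 counts in all 6 libraries. Il1rl1 met the low-count filter only through the pro-lymphoid libraries (36, 50 and 23 against 1, 0 and 0 counts). Ms4a2 met it only through the pro-myeloid ones (0, 0 and 3 against 93, 45 and 89 counts). Of 12 stromal cell genes, 4 were tested, 3 of them lower and 1 not passing, the summed level was 1.98 to 19.6 against 7.13 to 34.5 CPM, and Col1a2, Col3a1, Dcn and Lum were at 0 in every library. Those called lower were Thy1 (0, 0 and 1 against 641, 25 and 136 counts), Fbln1 (2, 10 and 3 against 24, 29 and 165) and Col1a1 (3, 1 and 0 against 55, 12 and 17). They met the low-count filter only through the pro-myeloid libraries. Pdgfrb stood at 10.2 ± 8.83 against 9.35 ± 5.49 CPM without a call. The part of these cell types in the differences of the 9 genes was not tested.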

How the data were processed

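The deposited table holds raw read counts of 23337 genes in 6 libraries. The authors made it with featureCounts 1.5.1 from primary alignments and a UCSC mm10 annotation, setting no strand option, per the file headers. TopHat, Bowtie, Trimmomatic and DESeq2 also appear in the submitters' processing notes, with settings not given in the sources used here. The deposited exon length, in bases, served for TPM.

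Groups and replicate numbers came from the sample titles. Differences were tested by edgeR's quasi-likelihood F test (edgeR 4.0.16, R 4.3.3) after filterByExpr and trimmed mean of M-values scaling (TMM), two-sided, with Benjamini-Hochberg adjustment over 12477 genes at 0.05. SEs were obtained as the absolute log2 fold change over the square root of F. Sums, shares and ratios of TPM were compared with two-sided exact permutation tests. The procedure was checked on simulated counts in which few genes were changed, in equal numbers up and down. That check does not cover a share of changed genes as large as the one called here. Alternatives were RLE, upper-quartile or no scaling factors, no filter or 1 CPM in 3 libraries, DESeq2 1.42.0, limma-voom (limma 3.58.1), a minimum absolute log2 fold change of 1, each library left out, and, chosen after seeing the data, the older quasi-likelihood fit.

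The members and the 14 gene lists were chosen with earlier results of these data known. The rule named the 9 genes, their relatives, the 6 list genes of smallest adjusted p in each list, uncalled list genes with at least 5 CPM where a level was needed, and the 3 genes most like each of the 3 most changed members. Genes of lower level without a call and marker genes at 0 were named after their values were seen. Some genes of the lists are not reported here. Older symbols matched Mfsd7b (Flvcr1), Igj (Jchain) and 2010001M09Rik (Mzb1), and Ahsp and Ighg1 had no match among the counted genes. Counting intervals and floors cover counting error only, since reads that carry no molecular identifier may repeat 1 molecule.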

Additional observations from a re-analysis of the deposited data

How the results depend on the processing

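Of the 9 genes, 7 kept their direction and call in all 14 alternative fits, and the calls of Maf and Nfe2l2 were lost in some (values in the report). None of the 9 changed sign. The number called was 7 to 9 with 1 library left out (3 to 4 higher, 4 to 5 lower), and 4 with a minimum absolute log2 fold change of 1 (1 lower). Of 34 genes of the lists followed through these fits, 22 kept their call in every alternative and 0 changed sign. Over all genes, 3086 to 5385 were called with 1 library left out (1298 to 2478 higher, 1788 to 2907 lower), the lowest without lymphoid replicate 6, and 2620 with the minimum change (985 higher, 1635 lower).

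List counts of called genes moved as follows. With 1 library left out they were 0 to 1 for NRF2 turnover, 1 to 3 for NRF1 processing, 0 to 2 for proteasome, 3 to 4 for heme, 1 to 2 for platelet, 0 to 1 for erythroid, 0 to 3 for stromal, 1 to 2 for T and NK and 1 to 3 for plasma cell genes. With the minimum change they were 0 for NRF2 turnover, 1 for NRF1 processing, 10 for antioxidant, 0 for proteasome and 2 for heme genes. Upper-quartile scaling or no scaling factors gave 1 for proteasome and 1 for erythroid genes. Without the filter they were 1 for proteasome, 2 for platelet and 5 for plasma cell genes, and with a filter of 1 CPM 0 for stromal, 1 for T and NK and 1 for plasma cell genes, fewer or more genes being tested by construction. DESeq2 gave 1 for erythroid and 1 for T and NK genes, and limma-voom 1 for plasma cell genes. The cause of the other changes was not tested. No scaling moved the median of all genes by over 0.1 (log2). The difference in the small Maf sum was -20.1 TPM, and -27.4 to -13.1 TPM with 1 library left out. No paired analysis was possible because the cultures share no replicate number. With 3 libraries a culture, depth limits Bach2 and Maf in pro-myeloid culture most.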
